A study of Mus musculus with 16 samples.

Results

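The comparison set basal cells of the tail interfollicular epidermis that had carried SmoM2 for 4 weeks against the same kind of cells after 1 week. SmoM2 is an activated form of Smoothened, the membrane protein that passes on the hedgehog signal, and its expression in mouse epidermis is used to model basal cell carcinoma. The 6 arrays, 3 at 1 week and 3 at 4 weeks, were chosen by the title of their samples from the 16 arrays of the series, and were set in 3 pairs by the replicate number in those titles. The cells came from K14CREER/Rosa-SmoM2-YFP mice of mixed strain. In these mice a Cre recombinase driven by the keratin 14 promoter, which is active in basal keratinocytes and in the outer root sheath, switches on SmoM2 once tamoxifen is given, and a YFP reporter marks the cells for sorting. Both groups were sorted as SmoM2-positive cells and had received tamoxifen, and they differed by the label only in the time since then. The 3 control arrays, used here as a baseline, held basal cells of untreated mice that carried the same alleles, so tamoxifen, SmoM2 and the sort on SmoM2 cannot be told apart in any value set against them. Age was not among the labels used here and no label says whether a replicate is 1 mouse or a pool, so p-values measure only the spread between these samples, which may be technical.

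In normal skin the hedgehog ligand Shh is made by the hair follicle and restrains the receptor Ptch1, which frees Smoothened to activate the Gli transcription factors. Gli1, Ptch1 and Hhip are themselves targets of the pathway, and hedgehog signalling drives the outgrowth of the hair germ. Basal cells of the epidermis divide, leave the basal layer and then make the keratins and cross-linking enzymes of the barrier, and the tail also carries scales with hair-type keratins.

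Values are log2 signals of Affymetrix arrays as deposited, and the number of arrays limits their precision. Defining genes were checked first. Krt14, a keratin of basal cells, had a log2 signal of 13.95, 13.32 and 13.99 at 1 week and 13.42, 12.83 and 13.56 at 4 weeks in replicates 1, 2 and 3. Gli1 lay between 5.30 and 5.73 in the controls and between 8.50 and 10.83 on the 6 SmoM2 arrays. Arrays stood apart in several ways. The deposited signals were spread less widely on replicate 2 of each group. Their standard deviation was 2.2, 2.2 and 2.18 at control, 1 week and 4 weeks, against 2.25 to 2.27 on replicates 1 and 3. The upper quartile was 7.5, 7.51 and 7.5, against 7.67 to 7.78. The part of this narrower spread in the low replicate 2 values given below was not tested. Over all genes the first component, with 37.9% of the variance of the 9 arrays, placed the controls at −35.1, −28.1 and −41.7, the 1-week arrays at −6.8, 36.2 and −33.1 and the 4-week arrays at 34.1, 56.1 and 18.5, so replicate 2 at 1 week lay among the 4-week arrays and replicate 3 at 1 week among the controls. Sex-linked genes also differed: Xist, which is read from the inactive X of females, had 5.96, 12.97 and 9.84 at 1 week and 6.50, 8.12 and 12.52 at 4 weeks. The mean of 3 Y-linked genes was 8.26, 3.34 and 7.38 and then 8.41, 7.58 and 6.02. On replicate 3 at each time both signals were well above the lowest of the 6 arrays (5.96 and 3.34). Whether these samples mix cells of both sexes was not tested. In pair 2 Xist fell from 12.97 to 8.12 and the Y-linked mean rose from 3.34 to 7.58. Arrays with the same replicate number were close to each other. The median absolute difference between the 1-week and 4-week array of a number was 0.209, 0.262 and 0.295, while replicates within a week differed by 0.306 to 0.484.

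No gene of the 14286 tested passed an adjusted p of 0.05 in limma with the replicate number as a block, and the lowest adjusted p was 0.253. At an unadjusted p under 0.05 there were 1838 genes (12.9%), of which 864 (6.05%) were higher and 974 (6.82%) lower at 4 weeks. In a fit with no replicate block the unadjusted count was 539. Every difference below is therefore a measured value that did not pass the adjusted test, written as 4 weeks minus 1 week on the log2 scale ± SE. The median difference over all genes was −0.04. As shares of all genes tested, 14.2% were higher and 18.5% lower in all 3 pairs, and for 2.95% the 4-week arrays lay all above and for 2.11% all below the 1-week arrays. Of the 20 alternative settings 19 called no gene. When replicate 2 at 1 week was left out, 11 genes passed at adjusted p-values of 0.0373 to 0.0485, 4 of them higher at 4 weeks (Lhx2, Lgr5, Fyn and Vasn) and 7 lower (Gna14, Antxr1, Ces2f, Fmo1, Tent5a, Olah and Abcc3). Of these genes Fyn, Vasn and the 7 lower ones are named because they passed there.

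Genes of the cell cycle had lower values at 4 weeks in nearly every pair. Of 50 mitosis genes on the list, 49 were measured and all 49 entered the test, and Ccnb1 is not analysed here. All 49 had a lower mean at 4 weeks than at 1 week, where 55.7% of all genes did. In 47 of them every pair was lower (18.5% of all genes), and 46 (93.9%) had an unadjusted p under 0.05 in that direction, against 6.82% of all genes. Lists and members were chosen with earlier results of these data known, so such shares describe the lists and are not a test. The median difference was −0.99, with pair medians of −0.86, −1.41 and −0.59. With no replicate block the median was the same and 22 of the 49 had an unadjusted p under 0.05. The difference was largest in the pair of replicate 2 for 41 genes, and replicate 2 at 4 weeks was the lowest of the 6 arrays for 44. Without that array the median was −0.73 and 44 genes were under 0.05. With Y-linked signal as a covariate the median was −0.99. After quantile normalization, which gives all arrays the same distribution, 45 of the genes were lower at an unadjusted p under 0.05. Other probe sets of these genes had the same sign in 46 of 52.

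Mitosis genes are switched on together late in the cycle, and many of their promoters hold a short element named CHR (TTTGAA), bound by the MuvB complexes, often downstream of a CCAAT box. Genes of DNA replication are switched on earlier and are classic targets of E2F. Windows of 300 bases, from 250 before the start of a RefSeq gene to 50 after it in the mouse build GRCm38.p6, were searched on both strands for TTTGAA, for CCAAT and for the E2F letters TTTCCCGC, TTTCGCGC, TTTGCCGC and TTTGGCGC. A window was found for 41 of the 49 mitosis genes and 29 of the 35 replication genes. TTTGAA was present in 68.9% of the 45 mitosis windows, in 8.82% of the 34 replication windows and in 17.9% of all 32851 windows. The E2F letters showed the reverse, with 2.22% of the mitosis windows, 38.2% of the replication windows and 2.26% of all. CCAAT was found in 77.8%, 55.9% and 37.4%. The windows of 4 mitosis genes are shown because 3 of them (Nek2, Anln and Cdkn3) belong to the 4 genes with the lowest p-values of the list and Cdk1 encodes its central kinase, and that of Rfc3 because it had the lowest p-value among replication genes with E2F letters. Each is printed 5′ to 3′ on the strand of its gene, with the searched letters on either strand in capitals. In these windows no match overlaps another. They lie at chr10:69352863-69353162 on the minus strand (Cdk1), chr9:22389157-22389456 on the minus strand (Anln), chr14:46760291-46760590 on the plus strand (Cdkn3), chr1:191821223-191821522 on the plus strand (Nek2) and chr5:151651159-151651458 on the minus strand (Rfc3).
Cdk1: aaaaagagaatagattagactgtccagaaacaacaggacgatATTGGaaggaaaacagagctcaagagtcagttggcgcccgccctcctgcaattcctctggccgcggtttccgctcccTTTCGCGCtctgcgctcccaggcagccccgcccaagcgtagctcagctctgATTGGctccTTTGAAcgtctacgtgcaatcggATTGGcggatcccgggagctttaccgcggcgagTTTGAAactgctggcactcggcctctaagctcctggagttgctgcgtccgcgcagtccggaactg
Anln: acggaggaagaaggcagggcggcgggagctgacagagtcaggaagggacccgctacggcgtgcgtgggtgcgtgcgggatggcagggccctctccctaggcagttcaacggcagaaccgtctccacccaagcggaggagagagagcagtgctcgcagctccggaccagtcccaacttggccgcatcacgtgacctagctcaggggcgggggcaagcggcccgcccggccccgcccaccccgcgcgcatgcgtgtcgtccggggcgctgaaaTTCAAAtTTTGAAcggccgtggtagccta
Cdkn3: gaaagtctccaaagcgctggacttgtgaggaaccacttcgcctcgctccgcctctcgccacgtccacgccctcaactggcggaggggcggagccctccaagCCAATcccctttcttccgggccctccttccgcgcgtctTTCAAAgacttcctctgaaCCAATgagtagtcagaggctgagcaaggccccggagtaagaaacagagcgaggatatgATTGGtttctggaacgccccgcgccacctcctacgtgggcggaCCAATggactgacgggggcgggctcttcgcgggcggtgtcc
Nek2: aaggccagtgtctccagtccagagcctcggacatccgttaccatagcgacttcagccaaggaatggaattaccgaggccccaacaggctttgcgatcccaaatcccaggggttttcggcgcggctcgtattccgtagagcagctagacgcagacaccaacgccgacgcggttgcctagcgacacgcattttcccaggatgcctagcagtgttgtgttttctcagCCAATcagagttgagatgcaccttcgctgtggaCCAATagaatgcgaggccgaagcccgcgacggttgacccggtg
Rfc3: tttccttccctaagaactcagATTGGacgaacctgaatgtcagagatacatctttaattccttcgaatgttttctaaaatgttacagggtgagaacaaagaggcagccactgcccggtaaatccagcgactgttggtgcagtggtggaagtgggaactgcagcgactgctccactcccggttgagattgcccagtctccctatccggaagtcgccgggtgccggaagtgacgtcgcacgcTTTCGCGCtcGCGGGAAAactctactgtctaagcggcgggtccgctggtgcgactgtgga
The Cdk1 window holds TTTGAA at 2 places, E2F letters at 1 and CCAAT at 3. The Anln window holds TTTGAA letters at 2 places and the Cdkn3 window at 1, that of Cdkn3 beside 4 CCAAT matches. The Nek2 window holds CCAAT at 2 places and neither of the other elements, and that of Birc5, the remaining one of those 4 genes, holds none of the 3. The Rfc3 window holds E2F letters at 2 places and no TTTGAA. All 5 genes had lower values at 4 weeks in every pair.

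Kinases that drive entry into mitosis were lower in every pair. Cdk1, the kinase that starts mitosis, had 10.52, 10.13 and 10.86 at 1 week and 9.43, 8.39 and 10.23 at 4 weeks. The groups overlapped, since replicate 3 at 4 weeks lay above replicate 2 at 1 week, and the difference was −1.15 ± 0.26 (adjusted p = 0.253). Nek2, a kinase of centrosome separation, had 9.84, 8.63 and 9.83 at 1 week and 9.0, 7.36 and 8.92 at 4 weeks. Each of its pairs was lower by a like amount (−0.84, −1.27 and −0.92), which gave −1.01 ± 0.13 (adjusted p = 0.253), the lowest p-value of the list. Cdkn3, a phosphatase that acts on Cdk1 and Cdk2, had the largest difference of the list, −1.46 ± 0.25. Its signal was 7.90, 6.89 and 8.85 at 1 week and 6.68, 5.47 and 7.09 at 4 weeks.

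Genes of the spindle and of cell division gave the same picture. Birc5, or survivin, a subunit of the chromosomal passenger complex, had 9.28, 9.73 and 10.53 at 1 week and 8.05, 8.38 and 9.52 at 4 weeks (−1.19 ± 0.19, adjusted p = 0.253). Anln, the actin-binding protein anillin of the contractile ring, had 10.58, 9.90 and 11.17 and then 9.25, 8.68 and 10.30 (−1.14 ± 0.18). Both groups overlapped for these genes, while each pair was lower. The 4-week arrays lay wholly below the 1-week arrays for 6 of the 49 genes, and for 2.11% of all genes. These 6, named after their values were seen, were Ect2, Kif2c, Cenpa, Cenpk, Smc2 and Kif22. Ect2, an exchange factor that triggers cytokinesis, had 10.27, 10.07 and 10.24 and then 9.38, 8.10 and 9.29, a difference of −1.27 ± 0.25. Mki67, the antigen Ki-67 used as a marker of cycling cells, was 12.05, 11.24 and 11.78 at 1 week and 11.54, 9.91 and 11.38 at 4 weeks (−0.75 ± 0.23), and Top2a, topoisomerase II, differed by −0.93 ± 0.27. The members with the smallest differences were Foxm1 (−0.07 ± 0.19), a transcription factor of mitosis genes, Espl1 (−0.30 ± 0.28), the protease separase, and Pttg1 (−0.42 ± 0.23), its inhibitor securin, which are the 3 genes that did not have an unadjusted p under 0.05.

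**Figure D1:**
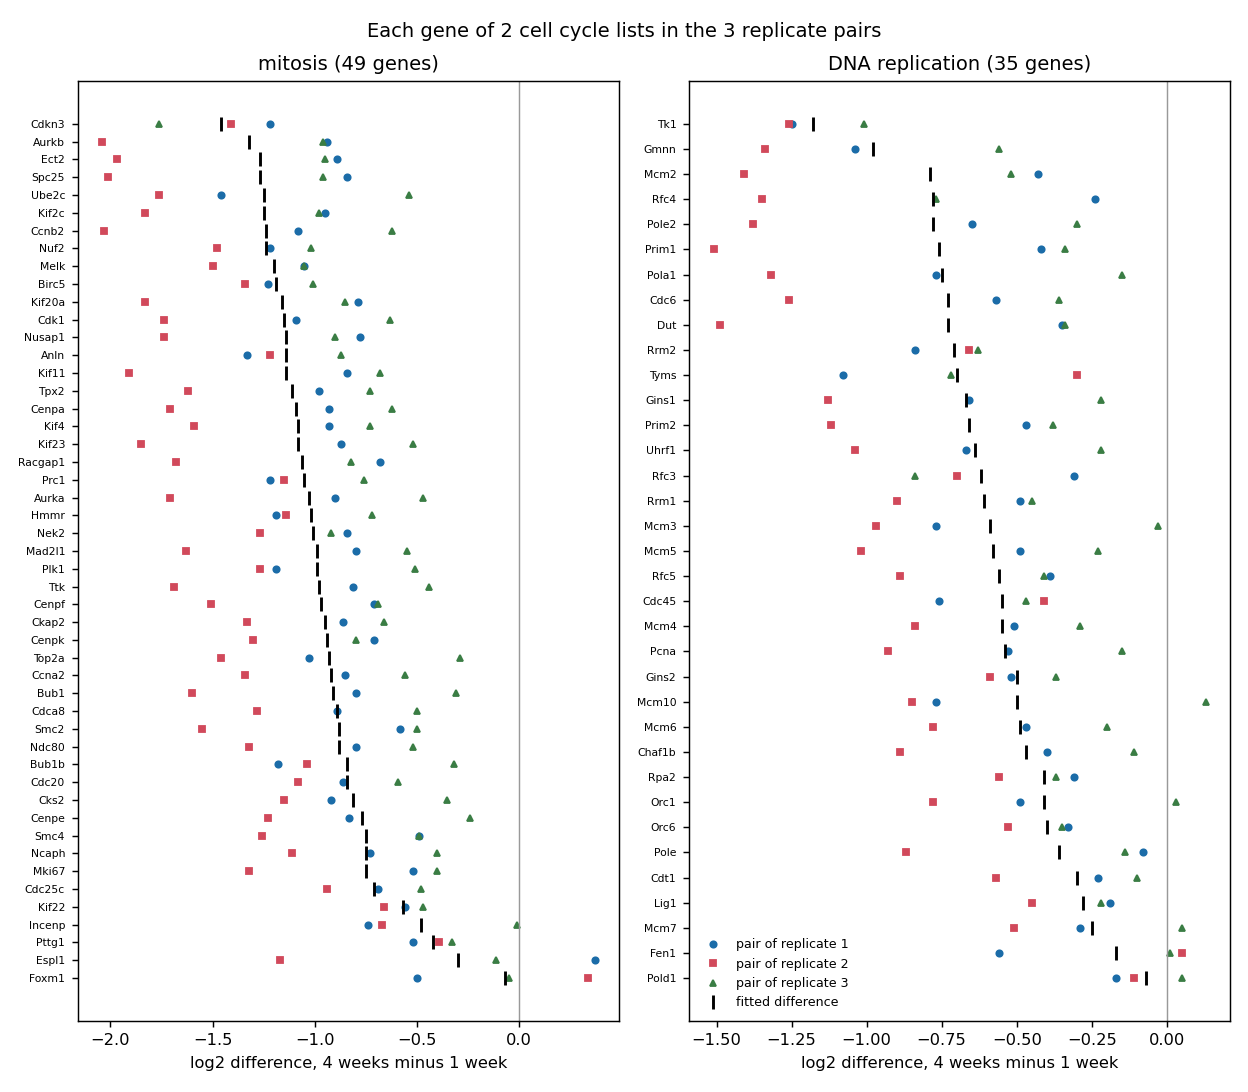
Log2 difference (x axis, 4 weeks minus 1 week) of every gene of the mitosis list (49 genes, left) and of the DNA replication list (35 genes, right), with 1 symbol for each replicate pair and a black bar for the fitted difference. All the bars lie below 0, and the squares of pair 2 lie farthest to the left for 41 mitosis genes and 29 replication genes.

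DNA replication genes showed the same direction with smaller differences. Of 37 genes on the list 35 were measured and tested. All 35 were lower in mean (55.7% of all genes), 30 of them in every pair (18.5% of all genes). An unadjusted p under 0.05 was found for 29 (82.9%), against 6.82% of all genes in that direction. The median was −0.58, with −0.49, −0.89 and −0.30 in the pairs. With no replicate block 6 genes had an unadjusted p under 0.05. Without replicate 2 at 4 weeks the median was −0.39 and 18 genes were under 0.05, and without replicate 2 at 1 week 13 were. Tk1, the thymidine kinase that feeds DNA synthesis, had 10.14, 9.03 and 10.41 at 1 week and 8.89, 7.77 and 9.40 at 4 weeks, a difference of −1.18 ± 0.25 (adjusted p = 0.253). Every pair of Tk1 was lower by at least 1.01. Cdc45 and Gins2, subunits of the replicative helicase, differed by −0.55 ± 0.12 and −0.50 ± 0.11, and Mcm2, of the same helicase, by −0.79 ± 0.22. Pcna, the sliding clamp of the polymerases, had 12.66, 12.21 and 12.47 and then 12.14, 11.27 and 12.32 (−0.54 ± 0.17). Tyms, thymidylate synthase, differed by −0.70 ± 0.17, with all its 4-week values below the 40th percentile of their arrays, the level used in the filter on low values, and so near background. Rfc3, a subunit of the clamp loader, was 8.51, 8.52 and 9.17 at 1 week and 8.20, 7.82 and 8.33 at 4 weeks, with no overlap (−0.62 ± 0.15). The 2 other genes with no overlap were Dut and Uhrf1, which made 3 of 35, against 2.11% of all genes. The smallest difference was that of Pold1 (−0.07 ± 0.13). Dut, Uhrf1 and Pold1 are named after their values were seen.

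Both lists had been above the controls at 1 week and were below them at 4 weeks. The mean log2 signal of the 49 mitosis genes was 9.50, 8.78 and 9.37 in the controls, 9.74, 9.10 and 9.97 at 1 week and 8.88, 7.71 and 9.34 at 4 weeks. Each 1-week array lay above and each 4-week array below the control of its number, in replicate 3 by a small step. Gene by gene, 41 of the 49 were above control in all 3 pairs at 1 week (17.9% of all genes) and 26 were below control in all 3 pairs at 4 weeks (27.6% of all genes). None of the 49 was below control in all pairs at 1 week, which 20.1% of all genes were, and none was above it in all pairs at 4 weeks, which 19.9% were. The median difference from control was 0.41 at 1 week and −0.59 at 4 weeks. For the 35 replication genes the counts were 19 and 18 and the medians 0.19 and −0.37. These comparisons share the control arrays with each other and the SmoM2 arrays with the comparison of the 2 times.

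**Figure D2:**
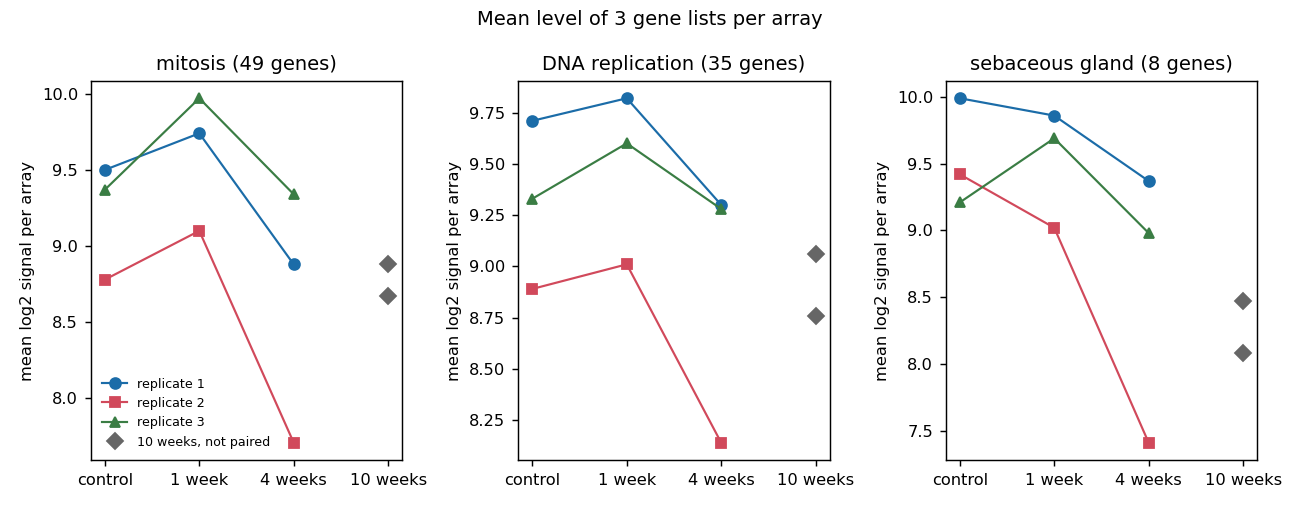
Mean log2 signal (y axis) of the mitosis, DNA replication and sebaceous gland lists on each array, with lines joining arrays of the same replicate number from control to 1 and 4 weeks and diamonds for the 2 arrays at 10 weeks, which are not paired. Among control, 1-week and 4-week arrays replicate 2 is the lowest of its group in the mitosis panel, with 8.78, 9.10 and 7.71, and each line ends at 4 weeks below its 1-week value.

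Other cell cycle genes differed less evenly. Of 14 DNA repair genes 11 were measured and 10 passed the filter on low values. All 10 had lower means (median −0.47), and 6 (60%) had an unadjusted p under 0.05, against 6.82% of all genes in that direction. Among them were Rad51ap1 (−0.88 ± 0.24), Exo1 (−0.93 ± 0.28), Chek1 (−0.74 ± 0.20), a checkpoint kinase, and Msh6 (−0.50 ± 0.16), a mismatch repair protein. Of 18 genes that act in G1 or encode E2F factors, 14 were lower in mean, where 55.7% of all genes were, with a list median of −0.26. At an unadjusted p under 0.05, 5 were lower (27.8%, against 6.82% of all genes). Ccne2, cyclin E2, was 9.14, 8.0 and 8.88 at 1 week and 8.28, 5.89 and 8.20 at 4 weeks (−1.21 ± 0.33). Ccnd2, cyclin D2, was 11.80, 10.97 and 11.87 and then 10.56, 10.54 and 11.24 (−0.77 ± 0.25). Cyclin D1 did not share that direction: Ccnd1 differed by 0.20 ± 0.14. Mycn, a Myc factor, had 10.81, 10.76 and 7.78 at 1 week and 11.80, 9.09 and 10.28 at 4 weeks, so its pairs ran in different directions (0.61 ± 0.74).

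Inhibitors of the cycle and p53 response genes had no common direction, with a median of −0.02 over 17 genes. Cdkn2b, the inhibitor p15 of Cdk4 and Cdk6, was higher on every 4-week array than on every 1-week array, at 7.82, 8.11 and 8.07 and then 8.87, 9.46 and 8.72 (1.02 ± 0.22, adjusted p = 0.253). Cdkn2c, the inhibitor p18 of the same kinases, was lower in every pair (−0.97 ± 0.22, adjusted p = 0.255). The neighbouring locus Cdkn2a, which encodes p16 and Arf and is named after its values were seen, was 3.97, 4.65 and 4.43 at 1 week and 3.97, 8.73 and 5.72 at 4 weeks, so replicate 2 at 4 weeks stood far above the rest (1.79 ± 0.86, adjusted p = 0.421). Cdkn1a, or p21, had −0.18 ± 0.27, Cdkn1c, or p57, had 0.27 ± 0.18, and the p53 targets Ccng1 and Mdm2 differed by −0.59 ± 0.19 and 0.32 ± 0.13.

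The gene with the largest lower value among those whose groups did not overlap was a keratin of differentiated layers, while the list of epidermal differentiation as a whole differed between pairs. Krt2, a keratin of the upper layers of tail and other thick epidermis, had 12.67, 10.96 and 13.01 at 1 week and 9.78, 6.89 and 10.37 at 4 weeks. No 4-week array reached the lowest 1-week array, and the difference of −3.20 ± 0.67 is a 9.16-fold lower mean signal (adjusted p = 0.253). The controls had 12.74, 13.12 and 12.69 and the 10-week arrays 8.39 and 10.12. Tgm3, a transglutaminase that cross-links the cornified envelope and hair, had 9.57, 8.29 and 9.93 and then 6.47, 7.24 and 8.11 (−1.99 ± 0.41, adjusted p = 0.253), again with no overlap. Krt10, a keratin made as cells leave the basal layer, was lower in every pair (−0.76 ± 0.21), and Dsc1, a desmosomal cadherin of differentiated layers, differed by −1.28 ± 0.49. Krt1, the partner of Krt10, was 12.93, 11.66 and 12.67 and then 10.42, 11.69 and 12.27 (−0.96 ± 0.53), so pair 2 showed no such difference.

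Over 35 differentiation genes the median was −0.32, with −1.18, −0.47 and 0.05 in the 3 pairs, and 4 genes (11.4%) had an unadjusted p under 0.05, all lower (6.82% of all genes). The mean of the list was 7.47 on replicate 1 at 4 weeks and 9.26 on replicate 3, so the 4-week arrays differed more among themselves than from the 1-week arrays, which had 8.71, 8.62 and 8.75. Basal genes differed by small amounts. Of 14 basal and hemidesmosome genes 10 were lower in mean, where 55.7% of all genes were, with a median of −0.13. Krt14 differed by −0.48 ± 0.19 and its partner Krt5 by −0.12 ± 0.15, and Lama5, a laminin chain, was higher in every pair (0.56 ± 0.12, adjusted p = 0.253). Krt15, a basal and bulge keratin, differed by −0.14 ± 0.18.

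Of the hair-type keratins, Krt36 and Krt84 were lower in every pair. Krt36 had 11.39, 10.29 and 13.30 at 1 week and 9.36, 6.77 and 10.56 at 4 weeks (−2.76 ± 0.70, adjusted p = 0.278), and Krt84 had 10.94, 9.75 and 12.79 and then 8.24, 7.18 and 9.84 (−2.74 ± 0.64, adjusted p = 0.258). In both the highest 4-week array, replicate 3, lay a little above the lowest 1-week array, replicate 2. Their controls were between 12.30 and 13.22, so the 4-week values were below control on each array. These were the 2 genes of the 21 on the list of hair keratins and hair regulators with an unadjusted p under 0.05 (9.52%, against 6.82% of all genes), and the list median was −0.02. On that list 12 genes were lower and 9 higher in mean. Foxn1 and Dlx3, transcription factors of hair differentiation, differed by −0.79 ± 0.35 and −0.38 ± 0.20.

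**Figure D3:**
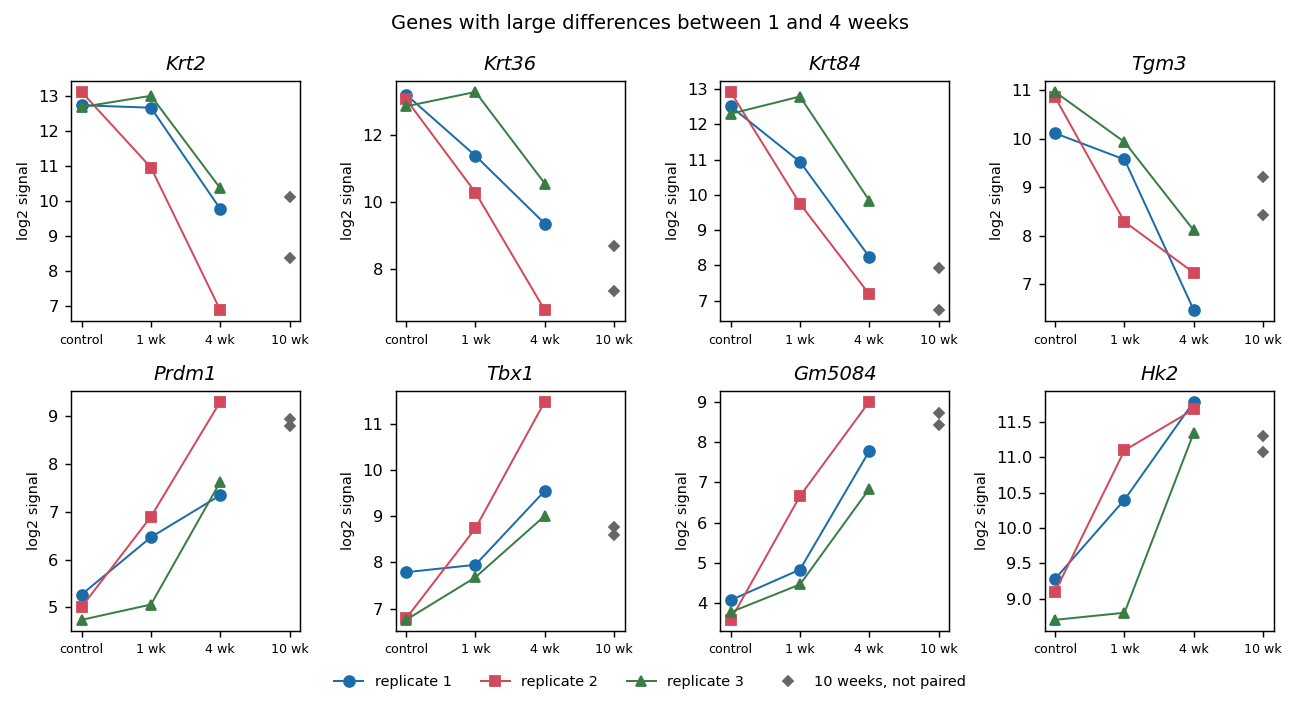
Log2 signal (y axis) of Krt2, Krt36, Krt84, Tgm3, Prdm1, Tbx1, Gm5084 and Hk2 on control, 1-week and 4-week arrays, joined by replicate number, and on both 10-week arrays (diamonds). The keratins and Tgm3 are lower at 4 weeks in each pair, and the other 4 genes are higher in each pair, with Prdm1 reaching 7.35, 9.31 and 7.63 at 4 weeks from 6.47, 6.90 and 5.06.

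Genes were also ranked by size among those with an unadjusted p under 0.05, 3 pairs of one direction and no overlap of the groups, which 161 genes met in the lower and 290 in the higher direction. Besides Krt2 and Tgm3, the 12 largest lower differences included genes of lipid handling. Cidea, a lipid droplet protein, was 8.86, 8.77 and 8.96 at 1 week and 7.74, 5.46 and 8.16 at 4 weeks (−1.74 ± 0.62). Mgll, which cleaves monoglycerides, differed by −1.63 ± 0.55 and Scd3, a fatty acid desaturase, by −1.54 ± 0.40. Adtrp (−1.58 ± 0.48) and Sdr16c6 (−1.75 ± 0.67) were 2 more enzymes. Cyp1a1, a cytochrome P450 induced through the aryl hydrocarbon receptor, was 7.42, 6.48 and 6.82 and then 5.16, 4.51 and 5.27 (−1.93 ± 0.37, adjusted p = 0.253). Tnfrsf19, a receptor of the TNF family, differed by −1.98 ± 0.66, most of it in pair 2 (−3.85). Tmem267 differed by −2.62 ± 0.70 with pairs of −3.98, −3.68 and −0.20. Depdc1a, a mitotic gene outside the list, had −1.52 ± 0.39.

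Transcription factors were among the genes with the largest higher values. Prdm1, or Blimp1, a repressor found in differentiating epidermal and sebaceous cells, was 6.47, 6.90 and 5.06 at 1 week and 7.35, 9.31 and 7.63 at 4 weeks, and differed by 1.96 ± 0.43 (adjusted p = 0.253). Tbx1, a T-box factor of the bulge, was 7.95, 8.74 and 7.68 at 1 week and 9.55, 11.48 and 9.01 at 4 weeks (1.89 ± 0.51, adjusted p = 0.284). Bach2, a bZIP repressor, differed by 1.76 ± 0.56. Among these genes the largest difference was that of Gm5084, a predicted gene, at 4.83, 6.66 and 4.46 and then 7.78, 9.01 and 6.84 (2.56 ± 0.49, adjusted p = 0.253). Its pairs were alike (2.94, 2.35 and 2.38), and its controls were at or below 4.07. D430019H16Rik, which has no established name, had pairs of 3.77, 0.17 and 1.53 (1.82 ± 0.61). The rest were genes of signalling, adhesion and metabolism. Hk2, the hexokinase that commits glucose to glycolysis, was 10.40, 11.10 and 8.80 and then 11.79, 11.68 and 11.35 (1.51 ± 0.36, adjusted p = 0.266). Cdk5r1, the activator of Cdk5, differed by 1.65 ± 0.34, Plekhg1 by 1.57 ± 0.30 and Tspan2, a tetraspanin, by 1.43 ± 0.28 (each adjusted p = 0.253). Ptprk, a receptor phosphatase, had 1.66 ± 0.47, Fstl1, a secreted glycoprotein, 1.65 ± 0.65 and Pcdhb9, a protocadherin, 1.72 ± 0.46. For Pcdhb9 no 1-week array, and for Gm5084 1 of 3, was above the 40th percentile of its array, so their differences are taken against values near background.

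Hedgehog targets had higher values at 4 weeks in most pairs. Gli1, the factor that serves as readout of the pathway, was 9.77, 10.16 and 8.50 at 1 week and 10.55, 10.83 and 9.95 at 4 weeks, against 5.73, 5.58 and 5.30 in the controls. All 3 pairs were higher, the groups overlapped, and the difference was 0.97 ± 0.24 (adjusted p = 0.278). Ptch1, the receptor, differed by 0.34 ± 0.31, with 13.38, 12.95 and 11.81 and then 13.60, 12.92 and 12.64, so the higher mean came from replicate 3. Without replicate 3 at 1 week its difference was −0.05. Hhip, a secreted decoy for the ligand, was 7.85, 10.37 and 7.0 and then 10.29, 11.19 and 8.84 (1.69 ± 0.94, adjusted p = 0.478), where replicate 2 at 1 week exceeded both other replicates at that time and 2 of the 4-week arrays.

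Transducers of the pathway had small higher values. Gli2, the main activating Gli factor, had 0.40 ± 0.18 and Gli3, mainly a repressor, 0.51 ± 0.18. Smo was 10.62, 11.06 and 10.06 at 1 week and 11.48, 10.98 and 11.01 at 4 weeks (0.58 ± 0.25), and whether its probe set reads the SmoM2 transgene was not checked. Sufu, which holds the Gli factors in check, and Kif7, a kinesin of the pathway in the primary cilium, differed by 0.59 ± 0.23 and 0.50 ± 0.20 and are named after their values were seen. The co-receptor Cdon (−0.72 ± 0.25) and Disp1, which releases the ligand from the cells that make it (−0.59 ± 0.22), had lower values. Of the 14 genes tested, 4 were higher and 2 lower at an unadjusted p under 0.05 (28.6% and 14.3%, against 6.05% and 6.82% of all genes). The list median was 0.37, with pairs of 0.18, 0.06 and 0.60. None of the 12 promoter windows found for 11 of these genes held the Gli letters TGGGTGGTC, which 0.253% of all windows did. With letters that rare, 12 windows are too few to show whether these genes hold them less or more often.

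**Figure D4:**
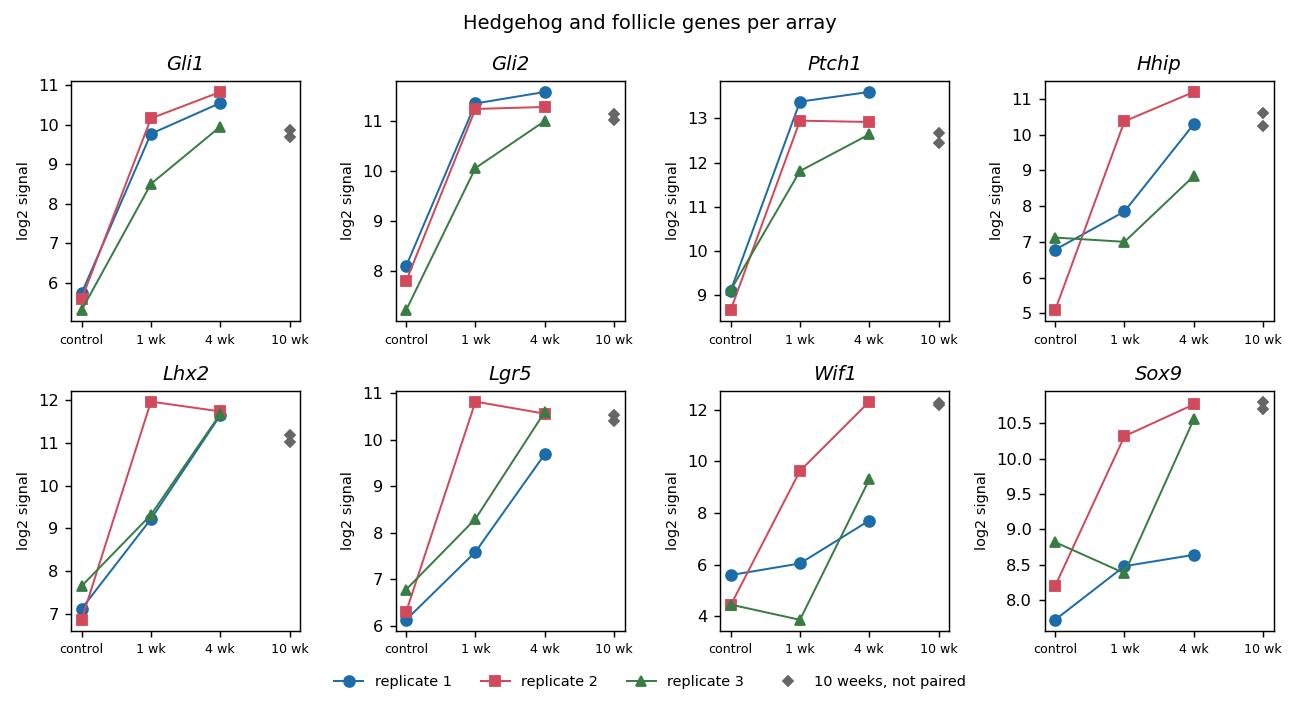
Log2 signal (y axis) of Gli1, Gli2, Ptch1, Hhip, Lhx2, Lgr5, Wif1 and Sox9 on control, 1-week and 4-week arrays, joined by replicate number, with both 10-week arrays as diamonds. Gli1, Gli2 and Ptch1 take most of their step from control to 1 week, and Lhx2 stands at 11.65, 11.74 and 11.68 at 4 weeks, where replicate 2 already had 11.97 at 1 week.

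Follicle genes separated replicate 2 from the other 1-week arrays. Lhx2, a transcription factor of the hair germ and bulge, was 9.22, 11.97 and 9.32 at 1 week and 11.65, 11.74 and 11.68 at 4 weeks. Lgr5, the R-spondin receptor that marks cycling follicle stem cells, was 7.59, 10.82 and 8.30 and then 9.69, 10.56 and 10.60. For Lhx2 the 4-week arrays were near the level that replicate 2 had at 1 week, and in both genes pairs 1 and 3 were higher while pair 2 was slightly lower. Over all pairs the differences were 1.52 ± 0.63 (adjusted p = 0.385) and 1.38 ± 0.59 (adjusted p = 0.391). Without replicate 2 at 1 week they were 2.50 and 2.29, and limma's adjusted p was 0.0373 for each. Sox9, a factor of the outer root sheath and bulge, was 8.48, 10.32 and 8.38 and then 8.64, 10.77 and 10.56 (0.93 ± 0.49), so replicate 1 at 4 weeks was near its 1-week level.

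Of the 20 bulge markers tested, 14 had higher means, 4 of them (20%) at an unadjusted p under 0.05 (6.05% of all genes), and the pair medians were 0.36, 0.25 and 1.31 around a list median of 0.76. Without replicate 3 at 1 week that median was 0.16. Bmp6, a BMP ligand, was higher in every pair (1.39 ± 0.48, adjusted p = 0.329). Cd34, a surface marker of bulge cells, was at 3.70, 3.88 and 5.63 and then 3.68, 4.10 and 4.35, low signals on all 6 arrays. Placode and germ genes, several of which are also bulge markers, had a median of 0.33 over 19 genes. At an unadjusted p under 0.05, 3 were higher (15.8%, against 6.05% of all genes), namely Prdm1, Tbx1 and Lhx2, and 0 were lower. Without replicate 3 at 1 week the median was 0.01. Lef1, the Wnt effector of the hair germ, differed by 0.33 ± 0.16, and Cxcr4, a chemokine receptor, by 0.58 ± 0.51.

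Wnt genes went in both directions. Wnt3, a ligand, was 5.81, 4.08 and 6.49 at 1 week and 3.53, 3.24 and 3.67 at 4 weeks (−1.98 ± 0.37, adjusted p = 0.253). All its 4-week values lay below the 40th percentile of their arrays, as did 1 of the 1-week values, so its level at 4 weeks is near background. Wnt16 also had lower values (−1.28 ± 0.33, adjusted p = 0.281), and was above that percentile on 2 of 3 arrays at 1 week and 1 of 3 at 4 weeks. Wnt5a, a ligand that mostly signals without β-catenin, was higher on each 4-week array, at 5.33, 5.64 and 5.50 and then 6.72, 6.47 and 7.42 (1.38 ± 0.33, adjusted p = 0.266). Wif1, which binds and blocks Wnt ligands, had the largest higher value of the list, with 6.05, 9.63 and 3.87 at 1 week and 7.71, 12.31 and 9.30 at 4 weeks (3.26 ± 1.19, adjusted p = 0.347). Its pairs were all higher, by 1.66, 2.69 and 5.43, the last from a 1-week value (3.87) below the 40th percentile of its array. Over 29 ligands, receptors and antagonists the median was −0.07, with 3 genes higher and 3 lower at an unadjusted p under 0.05 (10.3% each, against 6.05% and 6.82% of all genes).

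Among Tcf factors and Wnt targets, Tcf7l1, a Tcf repressor of bulge cells, had 8.03, 8.37 and 8.04 and then 8.89, 9.39 and 8.80, with no overlap and pairs of like size (0.88 ± 0.17, adjusted p = 0.253). Tcf7l2 differed by 0.64 ± 0.19 and Lgr4, an R-spondin receptor, by 0.75 ± 0.27. Ascl2, a Wnt target, was lower on each 4-week array, at 6.76, 6.24 and 7.72 and then 6.14, 6.08 and 6.21 (−0.77 ± 0.26, adjusted p = 0.329). Axin2, the common readout of Wnt signalling through β-catenin, was 8.51, 7.58 and 7.32 and then 8.18, 7.24 and 7.51 (−0.16 ± 0.22), and Ctnnb1, β-catenin itself, differed by 0.17 ± 0.12. The median of the 13 genes was 0.01.

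BMP and TGF-β genes had a median of 0.27 over 30 genes, with the 3 pairs close together at 0.25, 0.15 and 0.22. Other probe sets of these genes had the same sign in 20 of 29, and 14 of the 29 were lower at 4 weeks. At an unadjusted p under 0.05, 5 were higher (16.7%, against 6.05% of all genes) and 1 was lower (3.33%, against 6.82%). Ltbp3, which binds latent TGF-β, had 9.83, 10.42 and 9.79 at 1 week and 10.50, 11.19 and 10.47 at 4 weeks (0.71 ± 0.16, adjusted p = 0.253), with no overlap. Bmp4, a ligand, was the 1 gene lower at that p (−1.0 ± 0.26, adjusted p = 0.281), and Id4, an inhibitor of bHLH factors, differed by 0.45 ± 0.16.

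**Figure D5:**
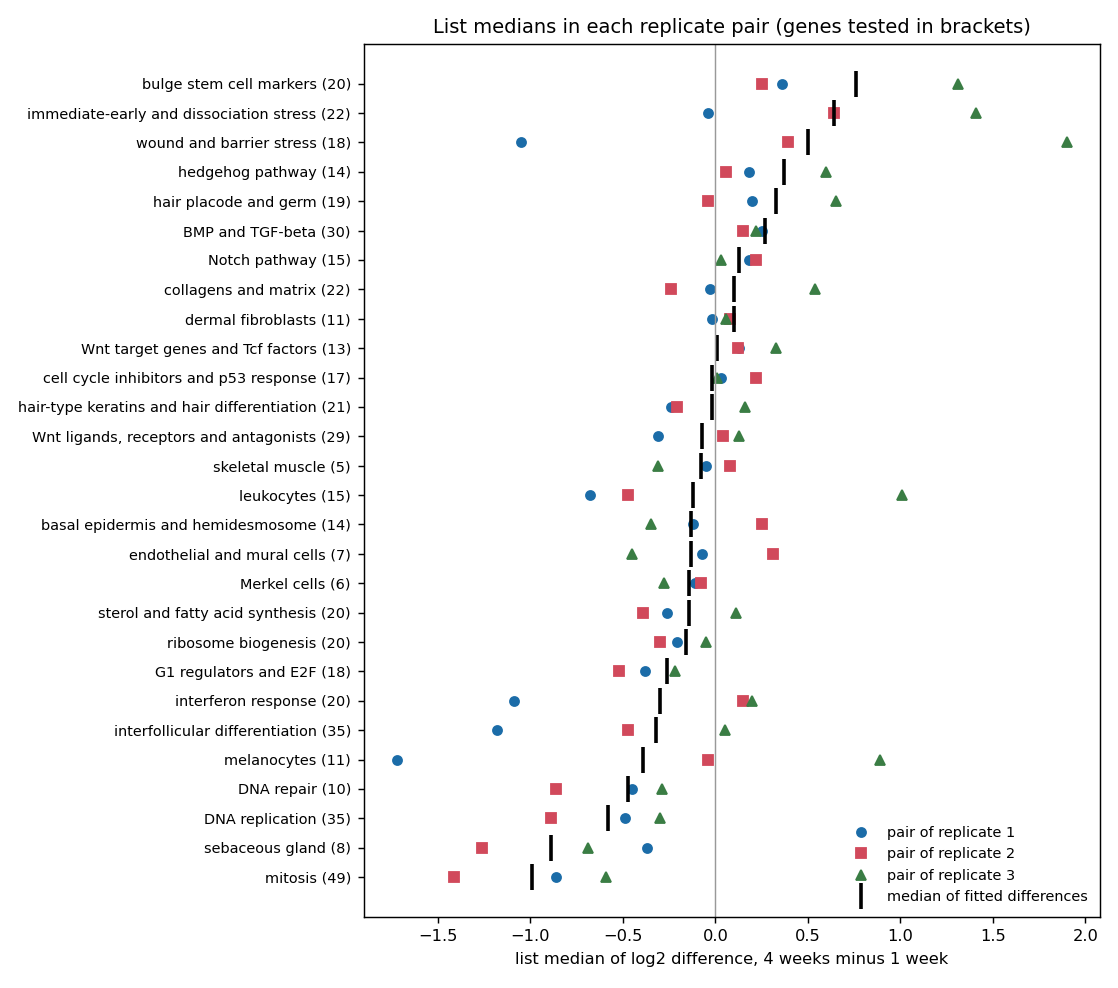
Median log2 difference (x axis, 4 weeks minus 1 week) of each gene and marker list (rows, with the number of genes tested) in the 3 replicate pairs, with a black bar for the median of the fitted differences. The mitosis, replication, DNA repair and sebaceous lists lie below 0 in every pair, as do the G1, ribosome biogenesis and Merkel cell lists. Wound and barrier stress runs from −1.05 in pair 1 to 1.90 in pair 3.

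Stress and immune lists differed from pair to pair. The list of wound and barrier genes ran from a median of −1.05 in pair 1 to 0.39 in pair 2 and 1.90 in pair 3. S100a8, an alarmin subunit, shows this range with 6.48, 9.70 and 7.10 at 1 week and 5.01, 12.30 and 11.55 at 4 weeks (1.86 ± 1.46, adjusted p = 0.594), and is named after its values were seen. Krt17, a keratin of stressed epidermis and of the follicle, was 13.33, 13.23 and 11.91 and then 12.47, 13.67 and 13.09 (0.25 ± 0.44), and its sign turned with array weights (−0.02). Lcn2, an antimicrobial protein, was higher in every pair (1.44 ± 0.55), and Stfa3, a protease inhibitor, lower in every pair (−2.34 ± 0.91). Immediate-early genes, which can be induced while tissue is dissociated, had a median of 0.64, with −0.04, 0.64 and 1.41 in the pairs, and 5 of 22 (22.7%) had an unadjusted p under 0.05, all higher, against 6.05% of all genes. Fosb was 6.23, 8.63 and 5.60 and then 6.46, 10.37 and 9.44 (1.94 ± 0.67), and Jun, its partner in AP-1, differed by 0.95 ± 0.28. The mean of the immediate-early list on replicates 2 and 3 at 4 weeks was 11.0 and 10.71, against 9.34 on replicate 1. Other probe sets of these genes had the same sign in only 9 of 16, and 10 of the 16 were lower at 4 weeks. Interferon response genes had high values on replicate 1 at 1 week, where their mean was 6.72 against 5.20 to 5.50 on the other 5 arrays, and pair 1 alone had a median far from 0 (−1.09).

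Markers of other cells were read beside these results. In sorted cells, fewer cells of a type and less of its RNA per cell cannot be told apart. The sebaceous gland list is the marker list with the largest median, −0.89 over 8 tested of 12 genes, with −0.37, −1.26 and −0.69 in the pairs. Its mean was 9.86, 9.02 and 9.69 at 1 week and 9.37, 7.41 and 8.98 at 4 weeks, and 5 of the 8 had lower values at an unadjusted p under 0.05 (62.5%, against 6.82% of all genes). They include Pparg, the receptor that drives sebocyte differentiation (7.49, 5.30 and 7.13, then 6.71, 4.30 and 6.07, −0.94 ± 0.26), Far2, an enzyme of wax synthesis (−1.90 ± 0.71), Mc5r, a melanocortin receptor of the gland (−0.83 ± 0.22), and Cidea. Replicate 2 at 4 weeks was again the lowest of the 6 arrays, for 7 of the 8 genes. The part of these cells in the lower values of lipid genes and of the cell cycle lists was not tested.

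Leukocyte markers had medians of −0.68, −0.47 and 1.01 in the pairs and melanocyte markers of −1.72, −0.04 and 0.89, so in both lists pair 1 was lower and pair 3 higher. The mean of 15 leukocyte markers was 6.60, 7.08 and 6.07 at 1 week and 5.63, 6.39 and 6.84 at 4 weeks. Cd207, or langerin, of Langerhans cells, was 6.56, 7.36 and 5.93 and then 5.06, 5.88 and 6.57, and Tyrp1, a pigment enzyme, was 9.57, 6.44 and 7.22 and then 6.11, 5.14 and 8.64. No marker of either list had an unadjusted p under 0.05, and their part in the stress and interferon values was not tested. Of 11 fibroblast markers 5 to 8 were above the 40th percentile on each of the 6 arrays, and the list median was 0.10. Dcn, decorin, was lower in every pair, at 12.98, 11.95 and 12.17 and then 12.53, 10.69 and 11.46 (−0.81 ± 0.29). In the controls no marker of the list was above 9.22, so Dcn lay above control on all 6 arrays. The list mean differed less, at 5.65 to 5.94 in the controls and 6.04 to 6.57 on the 6 arrays. Endothelial and mural markers (7 tested, median −0.13), Merkel cell markers (6, −0.14) and skeletal muscle markers (5, −0.08) had list means between 5.01 and 6.43 on all 6 arrays, and no blood gene passed the filter on low values.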

How the data were processed

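Sorted basal cells were profiled on Affymetrix 3′ arrays. The deposited log2 values, 1 per probe set, were made by the authors in R 2.14.0, per the submitters' processing notes, while for background correction, normalization and summary the method is not given in the sources used here. Of 45101 probe sets, 34958 named 1 gene and were used, 932 named several genes and 9211 none. For each of 18194 genes the probe set with the highest mean over the 16 arrays was taken, which can miss other transcript ends. The 14286 genes above the 40th percentile of the array on at least 2 of the 16 arrays were tested with limma 3.58.1 (R 4.3.3) over 9 arrays, control, 1 week and 4 weeks with 3 each, with the replicate number as a block and Benjamini-Hochberg adjustment at 0.05. The pairs follow the replicate number in the titles. Arrays of the same number deviated together from their group means, with correlations of 0.34 to 0.70 over 9 pairs against −0.53 to 0 over 18 pairs of different number. Since deviations were taken from group means, positive values for the same number push those of different number below 0 on average by construction. The gap between the 2 ranges is thus partly fixed in advance. This check, made on the same arrays as the p-values, decided that the number was kept as a block. The fit was also run on simulated data with independent errors for each gene and array. That run does not cover deviations shared by many genes of 1 array.

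Genes were named by size (up to 12 in each direction with an unadjusted p under 0.05, 3 pairs of one sign and no overlap), by the 4 lowest p-values of each list, and from a set of 34 genes, of which 32 were tested. The members and lists were chosen with earlier results of these data known. Alternatives covered the block, arrays, filter, normalization, probe sets, array weights, sex, the eBayes settings and each array left out.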

Additional observations from a re-analysis of the deposited data

How the results depend on the processing

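No gene was called by limma at an adjusted p of 0.05 in 19 of 20 alternatives, and leaving out 1 array at a time gave 0 to 11 calls, the 11 without replicate 2 at 1 week. The replicate block bore most on the counts at an unadjusted p under 0.05. With no replicate block these were 539 genes, 336 higher and 203 lower, with 22 mitosis and 6 replication genes lower, and with no block over 14 interfollicular arrays 688, 439 and 249, with 16 mitosis and 6 replication genes lower. With 1 array left out the counts ran from 1002 to 2013, 396 to 975 higher and 605 to 1038 lower, and replication genes from 13 to 30. Replicates 1 and 3 at 1 week were the arrays whose absence took the total down by over 1.5 times, to 1152 and 1002. Without the filter on low values 519 genes did not overlap in the lower direction, with more genes tested. The other causes were not tested. The medians of the mitosis and replication lists were below 0 in every alternative run, from −1.27 to −0.73 and from −0.74 to −0.39. Of 28 list medians 12 took both signs over the alternatives, among them differentiation (−0.91 to 0.06), wound and barrier stress (−0.13 to 1.23), interferon response (−0.60 to 0.17) and melanocytes (−1.04 to 0.53). The bulge list ran from 0.16 to 1.08 and the placode list from 0.01 to 0.49.

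Of 131 genes described, 120 kept their direction in every alternative that was run on them and 11 did not, and 129 were run in all 20. Krt17 had −0.02 with array weights, whose estimation gave a convergence warning. With 1 array left out the differences ran from −0.40 to 0.03 for Axin2, −0.60 to 0.12 for Cd34, −0.40 to 0.17 for Cdkn1a, −0.60 to 0.03 for Espl1, −0.23 to 0.15 for Foxm1, −0.28 to 0.08 for Krt15, −0.16 to 0.83 for Krt17, −0.35 to 1.56 for Mycn, −0.18 to 0.01 for Pold1, −0.05 to 0.57 for Ptch1 and −2.33 to 0.18 for Tyrp1. Genes near background, such as Wnt3 and Cd34, are limited by signal, and a lone array left in a pair shares the spread of the others.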

Other observations

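Of 20 ribosome biogenesis genes 14 were lower in mean, where 55.7% of all genes were, with a median of −0.16 and pairs of −0.21, −0.30 and −0.05, and 3 (15%, against 6.82%) had an unadjusted p under 0.05. Polr1b, a subunit of RNA polymerase I, was 8.22, 7.67 and 7.87 at 1 week and 7.74, 7.10 and 7.56 at 4 weeks (−0.45 ± 0.14, adjusted p = 0.307 in limma). Npm1, the nucleolar protein nucleophosmin, was lower on every 4-week array, at 12.59, 12.71 and 12.67 and then 12.39, 11.96 and 12.52 (−0.37 ± 0.15). Sterol and fatty acid synthesis genes were lower in mean for 16 of 20, against 55.7% of all genes (median −0.14). Scd1, a desaturase that is also on the sebaceous list, was the 1 gene with an unadjusted p under 0.05 (−0.78 ± 0.29), 5% of the list against 6.82%.

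Collagens and matrix genes had a median of 0.10 over 22 genes. Col6a2, a chain of collagen VI, was 6.51, 8.35 and 6.14 at 1 week and 7.74, 9.25 and 7.07 at 4 weeks (1.02 ± 0.32, adjusted p = 0.313 in limma). Notch pathway genes had a median of 0.13 over 15 genes, with Hey1, a Notch target, higher in every pair (0.42 ± 0.17).

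On the arrays outside the comparison, the mean log2 signal of the mitosis list was 8.67 and 8.88 at 10 weeks and 9.84 on the 1 array at 3 days. With loss of β-catenin beside SmoM2, at 4 weeks, it was 7.53 and 9.12. The bulge arrays, 1 control and 1 with SmoM2 at 4 weeks, had 9.20 and 9.40. The replication list had 8.76 and 9.06, 9.39, 8.08 and 8.92, and 9.35 and 9.26 in the same order.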
